A study of Mus musculus with 8 samples.

Results

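Transcripts of the creatine cycle and of the calcium futile cycle were followed in brown fat of mice with and without the gene Prdm16. The genes were Gatm, Gamt, Ckb, Ckmt1, Ckmt2 and Alpl of the creatine cycle and Atp2a2 and Ryr2 of calcium cycling. Members were all non-control probes that the array names for these 8 genes, which gave 8 of 31896 gene names and 11 of 39429 probes: 2 each for Gamt, Ckb and Atp2a2 and 1 for every other gene. All 11 were among the 26853 probes that passed the filter on dim signals. Ryr2 passed it through wild-type signals alone, so its place among the tested probes was not independent of a difference. The skeletal muscle genes Ckm (muscle creatine kinase) and Myh4 (a fast myosin heavy chain), with 1 probe each, were set beside them, because dissected brown fat can carry muscle.

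Creatine cycling lets a thermogenic fat cell spend ATP as heat without uncoupling protein. GATM and GAMT make creatine from arginine, glycine and methionine-derived methyl groups, SLC6A8 imports it, creatine kinases charge it to phosphocreatine at the cost of ATP, and the phosphatase encoded by Alpl releases the phosphate again in mitochondria of thermogenic fat. In calcium cycling the pump encoded by Atp2a2 (SERCA) spends ATP to load the endoplasmic reticulum, and release channels such as RYR2 let the calcium out again. CKMT2 is the mitochondrial creatine kinase of striated muscle, while CKB and CKMT1 are the kinases known from many other tissues.

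Each of the 8 arrays set RNA of Prdm16 knockout brown fat against RNA of wild-type brown fat of the same age, 4 arrays at 6 weeks and 4 at 11 months. The knockout RNA carried Cy3 on 2 arrays of each age and Cy5 on the other 2. The design text gives 4 biological replicates for each condition. Not given in the sources used here were the Prdm16 allele and the promoter of any Cre. The series' design text gives the ages as separately run batches, so age, slide and batch cannot be told apart in any difference between ages. Values are log2 knockout-to-wild-type ratios, and a value above 0 means more signal from knockout tissue. A probe was called at a limma adjusted p below 0.05. Unless marked SD, errors after ± are the model's standard errors, with n = 4 arrays at each age, and precision is limited by that number. The spread behind these errors was estimated over all 8 arrays together, not within each age. Errors and adjusted p-values at either age therefore also reflect scatter among the arrays of the other age.

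Between 61.2% and 68.2% of spots per channel were well above background, with saturation in none. The Prdm16 probe was lower in knockout tissue at 6 weeks (-0.58 ± 0.15, adjusted p = 0.0407, arrays from -1.09 to 0.06) and at 11 months (-0.50 ± 0.15, adjusted p = 0.0373, arrays from -0.96 to -0.18). Whether that probe sits inside the deleted stretch is unknown here. All 13 brown adipocyte markers were well above background in all 16 channel measurements. Markers of fast skeletal muscle were present too, with 14 of 24 well above background in all 16 measurements and none below it throughout. In whole tissue, fewer cells of a type and less RNA per cell cannot be told apart.

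The array reads each gene with probes of 60 bases, and the creatine kinase probes are shown because muscle Ckm is a close relative of Ckb. Capitals mark the bases that are identical to the Ckm probe in the best ungapped overlap, and in the Ckm line those identical to Ckb probe A_52_P385606. The sequences run 5′ to 3′ and come from the array design.
Ckb A_52_P385606: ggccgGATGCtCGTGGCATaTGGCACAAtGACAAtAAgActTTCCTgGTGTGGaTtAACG
Ckm A_51_P380807: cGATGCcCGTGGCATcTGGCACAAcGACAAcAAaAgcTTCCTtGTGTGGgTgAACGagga
Ckb A_55_P1976224: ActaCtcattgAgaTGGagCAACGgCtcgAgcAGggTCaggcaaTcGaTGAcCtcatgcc
Ckmt2 A_51_P165293: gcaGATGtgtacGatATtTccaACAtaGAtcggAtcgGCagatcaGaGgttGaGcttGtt
Ckb probe A_52_P385606 shared 45 of 56 overlapping bases with the Ckm probe (80.4%). The other Ckb probe shared 23 of 58 (39.7%) and the Ckmt2 probe 21 of 58 (36.2%). On build mm9 the Ckb probes lie at chr12:112908459-112909105 (A_52_P385606, minus strand, with a genomic span of 647 bases, so that the probe crosses an exon junction) and chr12:112907787-112907846 (A_55_P1976224, minus strand). The Ckmt2 probe (chr13:91993242-91995390, minus strand, span 2149 bases) and the Ckm probe (chr7:20002222-20004829, plus strand, span 2608 bases) cross a junction as well.

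At 6 weeks the cytosolic kinase Ckb fell in knockout tissue and the phosphatase Alpl rose. No other member passed the test. Of the 11 probes 3 were called (both Ckb probes lower, Alpl higher), against 16.6% of all probes tested (9.56% higher and 7.05% lower). By gene this was 2 of 8, beside 9.26% of all genes higher and 7.13% lower. The median over the 11 probes was -0.20, and that over all probes tested was 0.00137.

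At 11 months a different set stood out. Gamt rose most, Gatm rose by less, and Ckmt1 and Alpl fell. Of the 11 probes 5 were called, 3 higher and 2 lower, against 33.8% of all probes tested (17.3% higher and 16.4% lower). By gene this was 4 of 8, beside 17.8% of all genes higher and 16.7% lower, a share not far above that of all genes. The members' median was -0.04 and that of all probes 0.00921.

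The knockout ratio differed between the ages for 4 of the 8 genes, beside 8.41% of all genes with a higher ratio and 9.65% with a lower one. Ckb and Gamt had higher ratios at 11 months than at 6 weeks, and Ckmt1 and Alpl lower ones. This came to 6 of 11 probes (4 higher, 2 lower), against 17.6% of all probes tested (7.87% higher and 9.7% lower). The members' median difference was 0.26, and that of all probes was 0.00374.

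**Figure D1:**
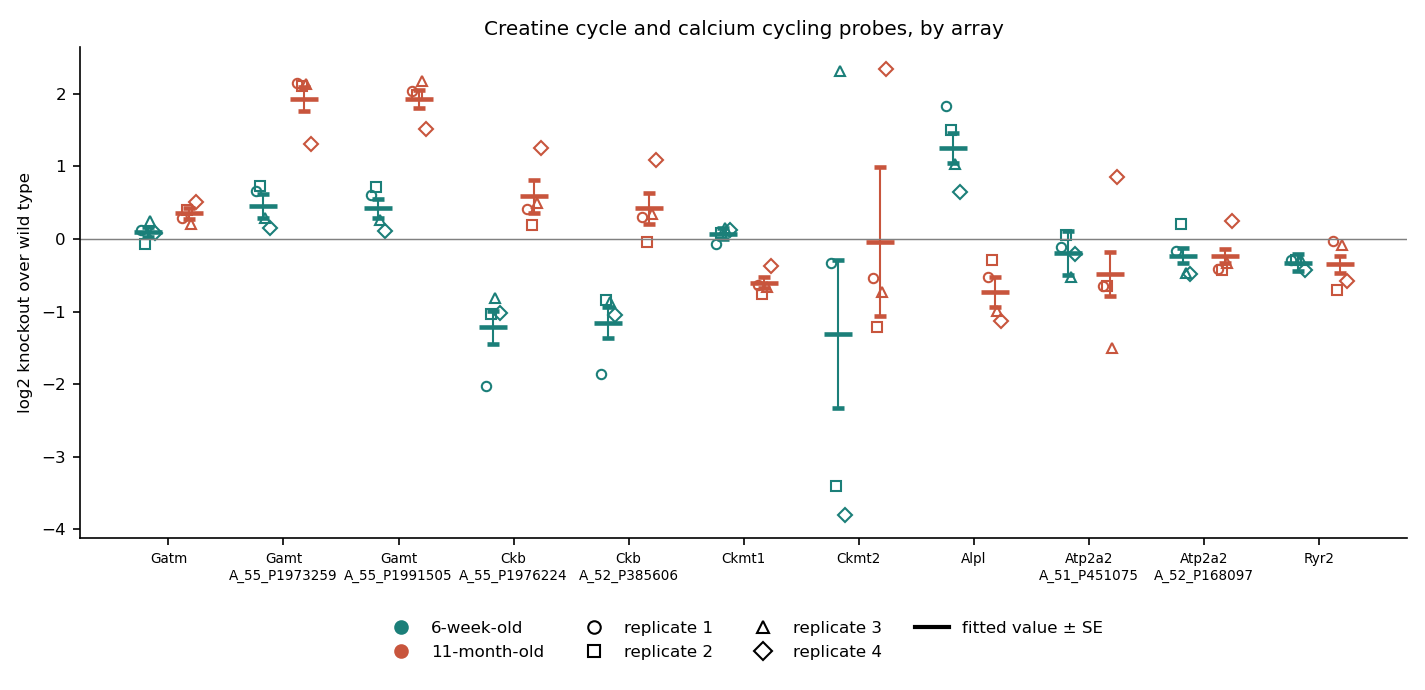
Log2 ratio of knockout over wild type (vertical axis) for each member probe on each of the 8 arrays, with green for 6 weeks, red for 11 months and 1 symbol per replicate; bars are the fitted value ± SE. Ckb lies below 0 at 6 weeks on every array, Alpl changes side between the ages, Gamt is near 2 at 11 months, and Ckmt2 ranges from -3.81 to 2.34.

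Creatine synthesis was read with Gatm and Gamt. Gamt encodes the methyltransferase that completes creatine. Its probe A_55_P1991505 gave log2 ratios of 0.60, 0.72, 0.26 and 0.10 at 6 weeks and 2.04, 1.98, 2.18 and 1.52 at 11 months, in replicates 1 to 4. All 8 values were above 0, and the lowest at 11 months was above the highest at 6 weeks. The fitted ratio at 11 months was 1.93 ± 0.13 (3.81-fold higher in knockout tissue, adjusted p = 5.68e-05), and at 6 weeks it was 0.42 ± 0.13 (adjusted p = 0.0596). The ages differed by 1.51 ± 0.18 (adjusted p = 0.00293).

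The second Gamt probe, A_55_P1973259, gave the same picture. It read 0.67, 0.74, 0.28 and 0.15 at 6 weeks and 2.15, 2.11, 2.14 and 1.31 at 11 months, with a fitted 1.93 ± 0.16 at 11 months (adjusted p = 0.000136) and a difference between the ages of 1.47 ± 0.23 (adjusted p = 0.0065). The replicate 4 array of 11 months was the lowest of its age on both probes. The probes share 54 of their 60 bases (A_55_P1973259 at chr10:79720903-79720962 and A_55_P1991505 at chr10:79720897-79720956, mm9, minus strand), so they are not independent readings. In log2 channel intensity on A_55_P1973259, wild-type tissue read 10.38 ± 0.24 (SD, n = 4) at 6 weeks and 11.1 ± 0.16 (SD, n = 4) at 11 months. Knockout tissue read 10.84 ± 0.16 (SD, n = 4) and 13.03 ± 0.52 (SD, n = 4). The knockout and wild-type levels did not overlap at either age. Without the replicate 4 array of 11 months, whose ratio was the lowest, the 6-week call was gained on both probes (adjusted p = 0.011 for A_55_P1973259 and 0.00856 for A_55_P1991505). The 6-week ratios stayed at 0.46 and 0.42, and their standard errors were 0.08 and 0.06 in place of 0.16 and 0.13. Median centring in place of loess ended the call on the difference for A_55_P1973259 (1.50, adjusted p = 0.0623).

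Gatm, which encodes the first enzyme of creatine synthesis, moved in the same direction by much less. It was also dimmer, with a mean log2 intensity of 7.75 beside 11.32 for Gamt probe A_55_P1973259. The part of signal level in this contrast was not tested. Its probe (A_51_P461319, chr2:122420814-122420873, minus strand) read 0.12, -0.06, 0.25 and 0.08 at 6 weeks. At 11 months it read 0.30, 0.40, 0.21 and 0.51. All 4 arrays of 11 months were above 0, and their lowest value lay inside the range of the 6-week arrays. The fitted ratio was 0.35 ± 0.07 at 11 months (1.28-fold higher, adjusted p = 0.00694; 0.82 with the scanner software's log ratio and 0.53 with the deposited log2 ratios, both called) and 0.10 ± 0.07 at 6 weeks (adjusted p = 0.388). The difference of 0.26 ± 0.10 did not pass (adjusted p = 0.119).

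The transcript of the creatine importer moved the other way. Slc6a8, the creatine transporter, was lower in knockout tissue in all 8 arrays, with -1.06, -1.32, -0.76 and -0.67 at 6 weeks and -1.47, -1.12, -0.86 and -0.03 at 11 months. The value of replicate 4 at 11 months was close to 0. Fitted ratios were -0.95 ± 0.21 (1.94-fold lower, adjusted p = 0.0229) and -0.87 ± 0.21 (1.83-fold lower, adjusted p = 0.0151). The ages did not differ past the threshold (0.08 ± 0.30, 95% interval -0.61 to 0.77, adjusted p = 0.873). Both calls were fragile. The 6-week call ended without 6-week replicate 1, 2 or 3 (adjusted p = 0.106, 0.0913 and 0.0518). So did the 11-month call without 11-month replicate 1, 2 or 3 (adjusted p = 0.0768, 0.073 and 0.0546). Median centring ended the 6-week call (-0.75, adjusted p = 0.0902) and the 11-month call (-0.63, adjusted p = 0.0705).

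Slc6a8 headed a list of 15 genes of creatine precursors, methyl-group supply and the transporter, of which 12 were measured. At 6 weeks none rose, 5 fell and 7 did not pass, beside 9.26% of all genes higher and 7.13% lower. Oat, the ornithine aminotransferase, fell by 0.66 on the log2 scale (± 0.15, adjusted p = 0.0237), and Asl, the urea-cycle lyase that yields arginine, by 0.38 (± 0.07, adjusted p = 0.0148). At 11 months 4 rose, 5 fell and 3 did not pass, beside 17.8% of all genes higher and 16.7% lower. Ahcyl1, a relative of adenosylhomocysteine hydrolase known for its binding to inositol trisphosphate receptors, fell 4.01-fold (-2.01 ± 0.11, adjusted p = 2.59e-05), while Oat rose by 0.70 ± 0.15 (adjusted p = 0.00842) and Ahcyl2 by 0.70 ± 0.12 (adjusted p = 0.00287). Asl rose too at 11 months (0.27 ± 0.07, adjusted p = 0.0242), and its ratio differed between the ages by 0.66 ± 0.10 (adjusted p = 0.00677). The list's medians were -0.27 and 0.05 at the ages in turn (-0.07 at 11 months over all probes in place of the brightest, so its sign depends on the probe choice), and those of all genes -0.0011 and 0.0082. Between the ages 4 ratios rose and 1 fell, beside 8.41% higher and 9.65% lower among all genes, with Oat (1.35 ± 0.21, adjusted p = 0.00597) and Ahcyl1 (-1.40 ± 0.15, adjusted p = 0.0023) at the ends.

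The kinases followed 3 patterns. Ckb was lower in knockout tissue at 6 weeks, Ckmt1 at 11 months, and Ckmt2 varied from array to array. Ckb encodes the brain-type cytosolic creatine kinase. Probe A_55_P1976224 read -2.03, -1.03, -0.81 and -1.01 at 6 weeks and 0.42, 0.19, 0.49 and 1.25 at 11 months. Every 6-week value was below 0 and every 11-month value above it, so the ages did not overlap. The fitted ratio at 6 weeks was -1.22 ± 0.23 (2.33-fold lower in knockout tissue, adjusted p = 0.0133). At 11 months it was 0.59 ± 0.23 (adjusted p = 0.0825), and the ages differed by 1.81 ± 0.32 (adjusted p = 0.0101).

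Probe A_52_P385606, which is close in sequence to Ckm, read -1.86, -0.84, -0.86 and -1.05 at 6 weeks and 0.31, -0.04, 0.34 and 1.08 at 11 months. The fitted values were -1.15 ± 0.21 (adjusted p = 0.0129), 0.42 ± 0.21 (adjusted p = 0.166) and a difference of 1.58 ± 0.30 (adjusted p = 0.0129). The 2 Ckb probes differed by 0.033 to 0.228 on an array, and they do not overlap on the genome. In log2 channel intensity of A_55_P1976224, wild-type tissue read 11.86, 10.96, 10.78 and 10.74 at 6 weeks, and knockout tissue 9.84, 9.93, 9.97 and 9.72. The wild-type sample of replicate 1 was the highest, and the genotypes did not overlap. At 11 months wild-type tissue read from 9.75 to 10.54 and knockout tissue from 10.41 to 11, which overlap. Leaving out 6-week replicate 1 gave -0.90 for A_55_P1976224 at 6 weeks (adjusted p = 0.0356), still called, and brought the 11-month ratio of that probe past the test (adjusted p = 0.0211). That 11-month ratio also passed with median centring (0.83, adjusted p = 0.0319).

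Ckmt1 encodes the ubiquitous mitochondrial creatine kinase. Its probe (A_55_P2072656, chr2:121189414-121189473, plus strand) read -0.07, 0.08, 0.15 and 0.12 at 6 weeks and -0.64, -0.76, -0.66 and -0.37 at 11 months. The ages did not overlap, and the 6-week values lay around 0. The fitted ratio was 0.07 ± 0.07 at 6 weeks (95% interval -0.10 to 0.24, adjusted p = 0.557) and -0.61 ± 0.07 at 11 months (1.52-fold lower in knockout tissue, adjusted p = 0.000749). The difference was -0.68 ± 0.11 (adjusted p = 0.0065). In log2 channel intensity the 4 wild-type samples of 11 months read 12.71 ± 0.01 (SD) and the knockout samples 12.1 ± 0.16 (SD). With median centring the 11-month value was -0.40 (adjusted p = 0.0765) and the difference -0.71 (adjusted p = 0.104), so neither call held there.

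**Figure D2:**
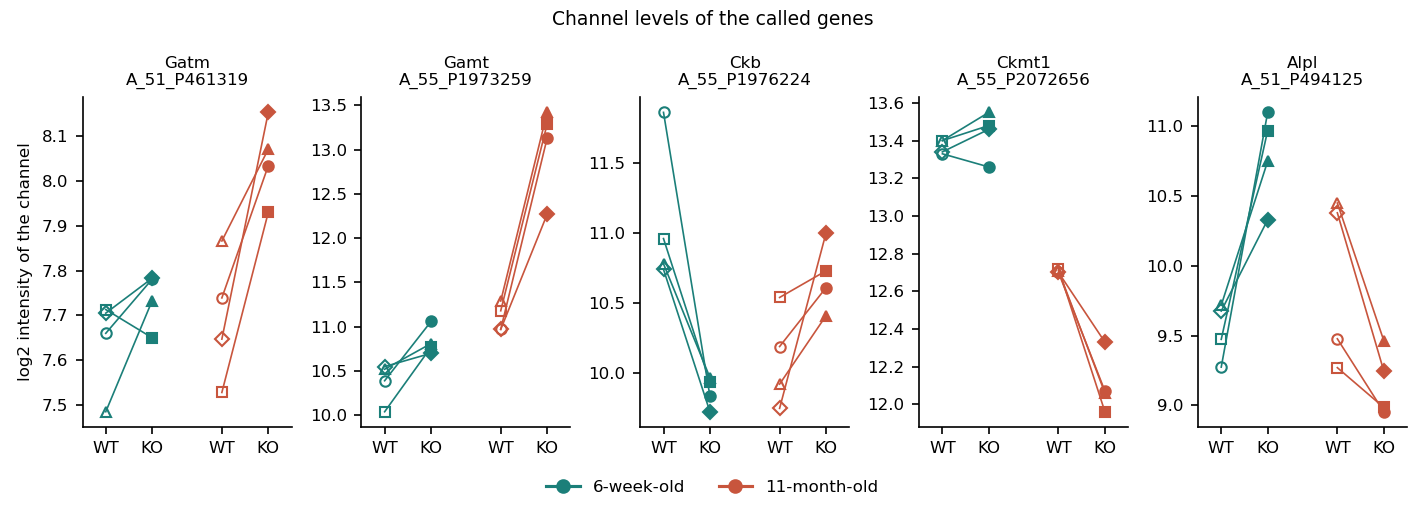
Log2 channel intensity (vertical axis, a scale of its own per probe) of wild-type (WT, open symbols) and knockout (KO, filled symbols) samples, joined by array, for 1 probe of each called gene; symbols give replicates 1 to 4 as circle, square, triangle and diamond. At 6 weeks the Ckb lines fall and the Alpl lines rise, at 11 months the Gamt lines rise, and the Ckmt1 and Alpl lines fall on all 4 arrays.

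Ckmt2 encodes the sarcomeric mitochondrial creatine kinase. It read -0.33, -3.41, 2.31 and -3.81 at 6 weeks and -0.54, -1.21, -0.73 and 2.34 at 11 months. Values of both signs stood at each age. The fitted ratios of -1.31 ± 1.02 (95% interval -3.67 to 1.06, adjusted p = 0.416) and -0.04 ± 1.02 (95% interval -2.40 to 2.33, adjusted p = 0.984) did not pass. The 11-month interval spans changes of several fold in both directions, and the 6-week interval a fall of several fold.

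Array by array Ckmt2 had the values of the muscle genes. Ckm read 0.09, -2.95, 2.38 and -3.45 at 6 weeks and -0.55, -1.26, -0.54 and 1.72 at 11 months. Myh4 read 0.53, -2.92, 4.34 and -4.11, then -0.43, -1.26, -0.23 and 1.28. The same arrays were high (6-week replicate 3 and 11-month replicate 4) and low (6-week replicates 2 and 4) for all 3 genes. Ckmt2 minus Ckm was -0.10 ± 0.35 (mean and SD over 8 arrays, from -0.46 to 0.62), while each gene ranged over 5.83 to 6.15 log2 units. Of all the member probes Ckmt2 lay nearest to Ckm, at a root mean square distance of 0.343 over the 8 dye-adjusted ratios. The other member probes lay at 1.87 to 2.67.

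The fast skeletal muscle list, 24 genes all measured, showed the same spread in each library. Its median ratio per array was 0.01, -2.75, 2.41 and -3.24 at 6 weeks and -0.44, -1.19, -0.30 and 1.80 at 11 months. None of the 24 was called at either age or between the ages. Its mean log2 intensity ran from 8.19 to 9.99 in knockout and from 7.90 to 12.18 in wild-type samples at 6 weeks. At 11 months it ran from 11 to 14.25 and from 11.35 to 13.88, so the genotypes overlapped at both ages. Ckmt2 itself was not above background in 1 of the 4 wild-type samples at 6 weeks. The slow and cardiac muscle list, with 12 of 16 genes measured and Myl7 and Mybpc3 not well above background in any channel, had no called gene either.

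**Figure D3:**
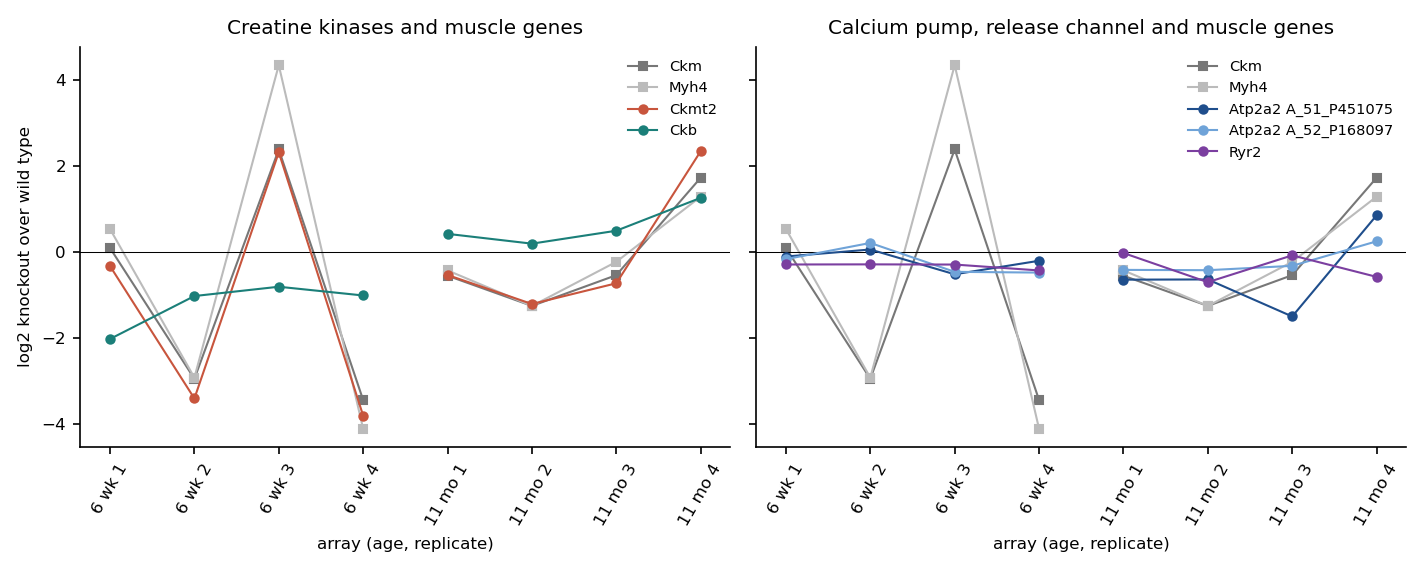
Log2 ratio of knockout over wild type (vertical axis) on each array (horizontal axis) for Ckm and Myh4 in grey beside Ckmt2 and Ckb probe A_55_P1976224 (left) and beside the Atp2a2 and Ryr2 probes (right); lines join the arrays of an age only to guide the eye. Ckmt2 lies on Ckm on nearly every array, while Ckb, Atp2a2 and Ryr2 do not swing with the muscle genes at 6 weeks.

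The mean of the Ckm and Myh4 ratios of each array was then added to the model as a covariate. Ckmt2 had a slope of 0.93 ± 0.07 on it (adjusted p = 0.00509), and 25 of 26853 probes had a called slope. The slopes of the other 10 member probes lay between -0.04 and 0.04, none called. Each slope was shared by both ages, and the covariate spanned -3.78 to 3.36 at 6 weeks but -1.26 to 1.5 at 11 months. A slope near 0 therefore says little about muscle within the 11-month arrays. There both Ckb probes ranked the arrays in the order of Ckm, and the part of muscle in that was not tested. At 6 weeks the called members were again both Ckb probes (-1.19, adjusted p = 0.0313, and -1.13, adjusted p = 0.0307) and Alpl (1.25, adjusted p = 0.0224). At 11 months they were Gamt on both probes, Gatm (0.36, adjusted p = 0.00696), Ckmt1 (-0.60, adjusted p = 0.00202) and Alpl (-0.73, adjusted p = 0.0445). For the difference between the ages both Ckb probes, both Gamt probes, Ckmt1 and Alpl were called, as in the model without the covariate. Ckmt2 read -0.60 ± 0.21 (adjusted p = 0.116) and 0.11 ± 0.21 (adjusted p = 0.722).

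Leaving out 3 arrays together (6-week replicates 2 and 4, 11-month replicate 4) left 2 arrays at 6 weeks and had a larger effect on the tests. Their mean Ckm and Myh4 ratios were -2.94, -3.78 and 1.5. The 6-week replicate 3 array was kept, though its mean was 3.36, so large muscle ratios remained in this fit. No member was called at 6 weeks then, beside 3.58% of all probes. Ckb read -1.42 and -1.36 (adjusted p = 0.0582 and 0.0545), and Alpl 1.43 (adjusted p = 0.0577), all larger than with all arrays. Between the ages only the 2 Gamt probes remained called, beside 2.82% of all probes, with adjusted p = 0.0719 and 0.0752 for Ckb, 0.056 for Ckmt1 and 0.0552 for Alpl. At 11 months Gatm (0.28, adjusted p = 0.0506) and Alpl (-0.60, adjusted p = 0.123) lost their calls, and both Atp2a2 probes gained one (-0.98, adjusted p = 0.0271, and -0.36, adjusted p = 0.0279).

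**Figure D4:**
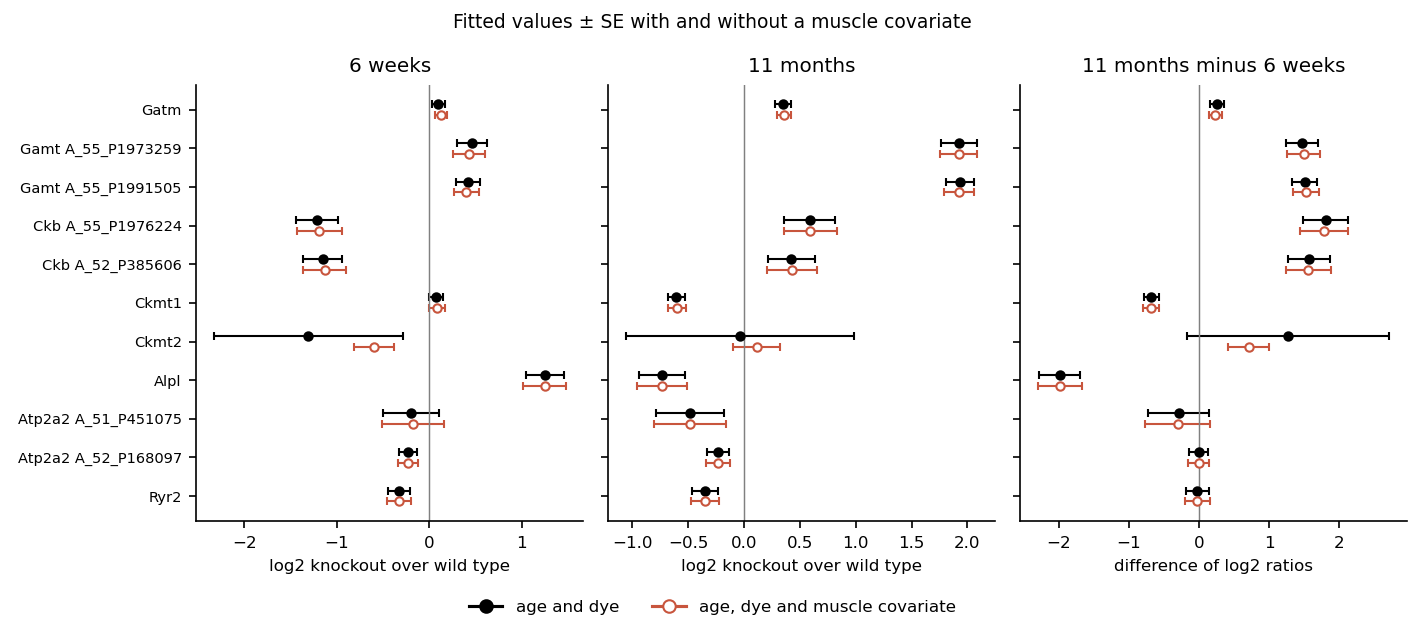
Fitted values ± SE of the 11 member probes (horizontal axis, log2) at 6 weeks, at 11 months and for their difference, from the model with age and dye (black) and with the mean of Ckm and Myh4 as a further term (red, open). The Ckmt2 value and its error shrink at 6 weeks from -1.31 ± 1.02 to -0.60 ± 0.21, and the other probes keep nearly the same place.

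The phosphatase Alpl, tissue-nonspecific alkaline phosphatase, had knockout ratios of opposite sign at 6 weeks and 11 months. Its probe (A_51_P494125, chr4:137297658-137297716, minus strand) read 1.83, 1.50, 1.03 and 0.65 at 6 weeks and -0.52, -0.29, -0.99 and -1.13 at 11 months. Every 6-week array was above 0 and every 11-month array below it. The fitted ratios were 1.25 ± 0.21 (2.38-fold higher in knockout tissue, adjusted p = 0.00896) and -0.73 ± 0.21 (1.66-fold lower, adjusted p = 0.028). The difference of -1.98 ± 0.29 passed (adjusted p = 0.00531). In log2 channel intensity wild-type tissue read 9.54 ± 0.20 (SD, n = 4) at 6 weeks and 9.89 ± 0.61 (SD, n = 4) at 11 months, and knockout tissue 10.79 ± 0.34 (SD, n = 4) and 9.16 ± 0.24 (SD, n = 4). The genotypes did not overlap at 6 weeks, and at 11 months their levels did. The 11-month call ended without 11-month replicate 1, 3 or 4 (-0.83, -0.61 and -0.55, adjusted p = 0.0567, 0.108 and 0.121). Median centring ended it too (-0.56, adjusted p = 0.166). Of the 3 paralogs only Alppl2 was measured, and it was not past the test at 6 weeks (0.07, adjusted p = 0.431) or 11 months (0.11, adjusted p = 0.194).

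Genes that carry ATP and ADP to and from the mitochondrial kinases were read as a list of 11 pores, adenine nucleotide carriers, adenylate kinases and the phosphocholine phosphatase Phospho1. At 6 weeks 2 rose, 2 fell and 7 did not pass, beside 9.26% of all genes higher and 7.13% lower. At 11 months 1 rose, 8 fell and 2 did not pass, beside 17.8% higher and 16.7% lower, with a list median of -0.50 beside 0.0082 over all genes. Ak4, the adenylate kinase of the matrix, fell at both ages (-0.58 ± 0.10, adjusted p = 0.00987, and -0.75 ± 0.10, adjusted p = 0.000978). Phospho1 fell at 11 months (-0.91 ± 0.14, adjusted p = 0.00226), and so did Ak1, the cytosolic form abundant in muscle (-1.13 ± 0.37, adjusted p = 0.0479). The Ak1 ratio was close to that at 6 weeks without passing (-1.01 ± 0.37, adjusted p = 0.098), and the ages differed by -0.11 (adjusted p = 0.9). Vdac1, the outer-membrane pore, rose at 6 weeks (0.32 ± 0.07, adjusted p = 0.0228) and fell at 11 months (-0.24 ± 0.07, adjusted p = 0.0308). Its ratio differed between the ages by -0.56 ± 0.10 (adjusted p = 0.00999). Ak5 fell at 6 weeks (-0.39 ± 0.11, adjusted p = 0.0481). Between the ages 1 ratio rose and 5 fell, beside 8.41% of all genes higher and 9.65% lower. Among those that fell were Vdac2 (-0.61 ± 0.10, adjusted p = 0.00671), the carrier Slc25a5 (-0.64 ± 0.10, adjusted p = 0.00643), Ak3 (-0.57 ± 0.13, adjusted p = 0.0239) and Phospho1 (-0.80 ± 0.20, adjusted p = 0.0328).

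Calcium cycling members did not pass the test at either age. Atp2a2, the endoplasmic reticulum calcium pump of most tissues and of slow muscle and heart, has 2 probes. A_51_P451075 (chr5:122903704-122903763, minus strand) read -0.11, 0.05, -0.52 and -0.21 at 6 weeks and -0.65, -0.64, -1.50 and 0.85 at 11 months. A_52_P168097 (chr5:122910660-122910719, minus strand) read -0.17, 0.21, -0.46 and -0.48, then -0.42, -0.43, -0.33 and 0.24. On both probes 3 of 4 arrays were below 0 at each age, with 6-week replicate 2 and 11-month replicate 4 above it. The fitted values were -0.20 ± 0.30 and -0.49 ± 0.30 on the first (adjusted p = 0.699 and 0.262) and -0.23 ± 0.10 at both ages on the second (adjusted p = 0.154 and 0.11). The 95% intervals at 11 months were -1.19 to 0.22 and -0.46 to -0.0026, the latter before adjustment. The probes differed by up to 1.18 on an array.

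Without 11-month replicate 4 both Atp2a2 probes were called lower at 11 months (-0.95, adjusted p = 0.0106, and -0.33, adjusted p = 0.0457). On that array Ckm read 1.72, the fast muscle list 1.80 and the slow and cardiac muscle list 3.38 at the median, the latter against -0.93 to 0.19 in the others of that age. The part of slow muscle in this value was not tested. With the mean of Ckm and Myh4, both fast-muscle genes, as covariate the Atp2a2 slopes were 0.02 and -0.004, and neither probe was called at 11 months (adjusted p = 0.309 and 0.148).

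Ryr2, the calcium release channel best known from heart, was near the detection limit. It was well above background in no knockout sample, in 1 of 4 wild-type samples at 6 weeks and in 3 of 4 at 11 months (A_52_P440709, chr13:11645812-11645871, minus strand). The ratios were -0.29, -0.29, -0.30 and -0.43 at 6 weeks and -0.03, -0.71, -0.08 and -0.58 at 11 months, all below 0. The fitted values of -0.33 ± 0.12 (adjusted p = 0.0945) and -0.35 ± 0.12 (adjusted p = 0.0534) did not pass. With the dim knockout signal set no lower than the lowest signal well above background on its array, the 11-month wild-type mean was 1.27-fold higher. This difference was not called. Only 3 of 4 wild-type samples in that mean were well above background, so 1.27-fold is not a lower bound. No such value is given at 6 weeks, where 1 of 4 wild-type samples was measured. Ryr2 entered the tested probes through wild-type signals alone, so the calls listed next are not support for a difference. Whether Ryr2 was called changed with the processing and the arrays. At 11 months it passed with the scanner software's log ratio (-2.67, adjusted p = 0.00367), no background correction (-0.65, adjusted p = 0.00648), the deposited log2 ratios (-0.73, adjusted p = 0.00427), median centring (-0.52, adjusted p = 0.0184) and without 11-month replicate 1 (-0.49, adjusted p = 0.0214) or 3 (-0.45, adjusted p = 0.0433). At 6 weeks it passed with no background correction (-0.49, adjusted p = 0.0459), with the deposited log2 ratios (-0.56, adjusted p = 0.0328) and with each age modelled alone (adjusted p = 0.0228).

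The muscle forms of pump and channel varied widely between arrays, and their slopes on the mean of Ckm and Myh4 did not pass (0.63, adjusted p = 0.0783 for Atp2a1, and 0.58, adjusted p = 0.141 for Ryr1). Atp2a1, the pump of fast muscle, spanned -2.80 to 0.89 over the 6-week arrays and -1.58 to 1.66 over those of 11 months, and was not called (adjusted p = 0.309 and 0.746). Ryr1, the release channel of skeletal muscle, spanned -2.69 to 0.90 and -1.53 to 1.50 (adjusted p = 0.324 and 0.833).

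Of 24 further genes of reticulum calcium handling 22 were measured. At 6 weeks 1 rose, 2 fell and 19 did not pass. At 11 months 3 rose, 4 fell and 15 did not pass, and between the ages 2 ratios rose and 1 fell. Beside these stand 9.26% of all genes higher and 7.13% lower at 6 weeks, 17.8% and 16.7% at 11 months, and 8.41% and 9.65% between the ages, so the list as a whole was not called more often than all genes, counting both directions. Of the 3 inositol trisphosphate receptor genes, which encode release channels, 2 fell at 11 months and 1 at 6 weeks. Itpr2 fell at 6 weeks (-0.80 ± 0.21, adjusted p = 0.0398) and at 11 months (-1.42 ± 0.21, 2.67-fold, adjusted p = 0.00182), and Itpr1 at 11 months (-1.26 ± 0.08, adjusted p = 5.35e-05) but not past the test at 6 weeks (-0.12, adjusted p = 0.341). Itpr3 did not pass at 6 weeks (-0.10, adjusted p = 0.436) or 11 months (0.16, adjusted p = 0.15). Asph, whose locus also encodes the reticulum protein junctin, rose at both ages (0.43 ± 0.12, adjusted p = 0.045, and 1.39 ± 0.12, adjusted p = 0.000137). Sri, the calcium-binding protein sorcin, fell at 6 weeks (-0.43 ± 0.08, adjusted p = 0.0118), and Tmem38b, a potassium channel of the reticulum, at 11 months (-0.62 ± 0.12, adjusted p = 0.00629). Sarcolipin (Sln), the SERCA regulator of muscle, was not past the test at 6 weeks (-0.46, adjusted p = 0.671) or 11 months (0.87, adjusted p = 0.348). The list's medians were -0.14 and -0.06.

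Of 32 genes of plasma-membrane and mitochondrial calcium transport 31 were measured. At 6 weeks 2 rose, 1 fell and 28 did not pass. At 11 months 8 rose, 5 fell and 18 did not pass. The shares of all genes, as above, were 9.26% higher and 7.13% lower at 6 weeks and 17.8% and 16.7% at 11 months, and the list's medians were -0.0019 and 0.05. Letm1, an inner-membrane cation exchanger, fell at 11 months (-1.25 ± 0.12, adjusted p = 0.000205), and Trpv2, a cation channel, rose (0.84 ± 0.17, adjusted p = 0.00641). Stim1, the reticulum's calcium sensor, rose at 6 weeks (0.46 ± 0.09, adjusted p = 0.013). Orai3 fell at 6 weeks (-0.27 ± 0.06, adjusted p = 0.0306) and at 11 months (-0.51 ± 0.06, adjusted p = 0.000858). Between the ages 2 ratios rose and 5 fell, beside 8.41% of all genes higher and 9.65% lower. Letm1 (-1.13 ± 0.17, adjusted p = 0.00516) and Trpv2 (0.98 ± 0.23, adjusted p = 0.0275) moved farthest.

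**Figure D5:**
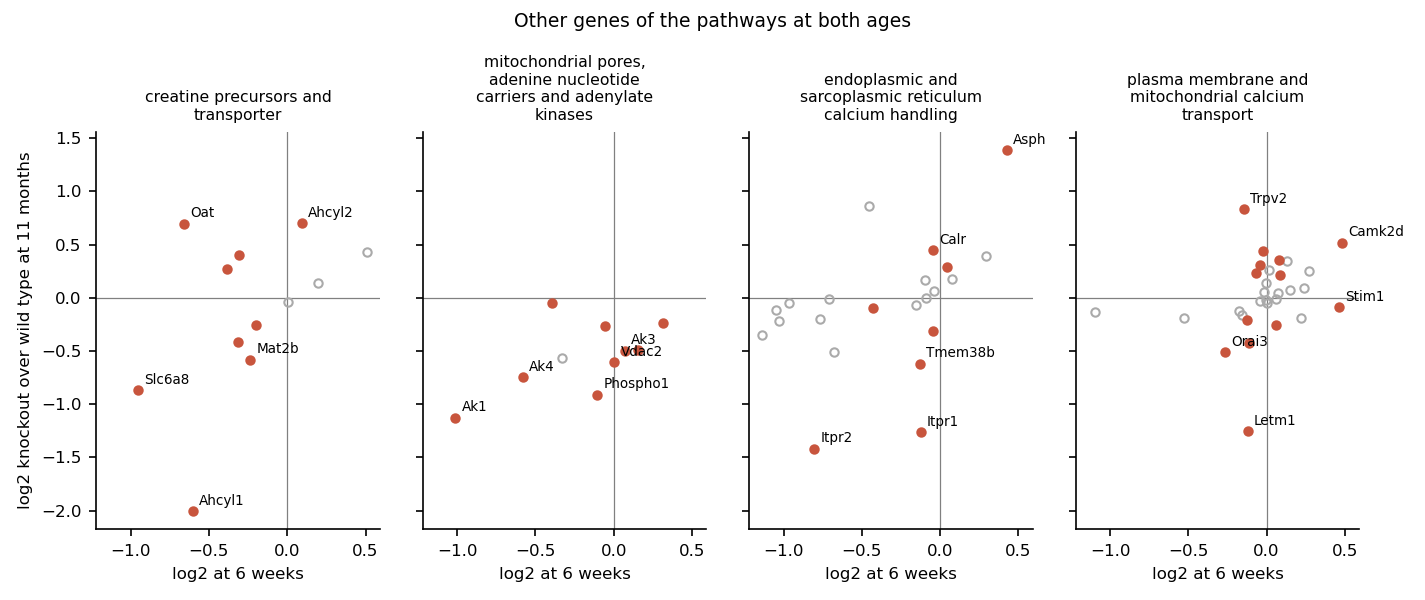
Fitted log2 ratio of knockout over wild type at 6 weeks (horizontal axis) and 11 months (vertical axis) for measured genes of the 4 pathway lists, red where called at either age; the called genes farthest from 0 are named, and genes not reported here are left out. Of the genes drawn, Ahcyl1 and Itpr2 lie lowest at 11 months and Asph highest.

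Other cell types moved beside the 11-month changes. Of the 13 brown adipocyte markers 3 rose and 9 fell at 11 months (median -1.61), led by Ucp1, the uncoupling protein (-4.05 ± 0.44, adjusted p = 0.000414), whereas at 6 weeks 3 rose and 1 fell (median -0.0036). Of 6 measured smooth muscle markers 5 rose at 11 months and of 8 macrophage markers 4 rose, with medians of 0.41 and 0.24, beside 17.8% of all genes higher and 16.7% lower at that age. At 6 weeks 1 of 6 and 0 of 8 rose, and 1 of each list fell. The shares of all genes at 6 weeks were 9.26% higher and 7.13% lower. Of 8 endothelial markers 3 fell at 6 weeks, above the share of all genes, and 1 rose at 11 months, below that age's share. Of 7 measured nerve and Schwann cell markers none was called at 6 weeks and 2 fell at 11 months, while Tubb3, Nefl and Nefm were not well above background in any channel. The part of these cells in the changes of Gamt, Gatm, Ckmt1 and Alpl was not tested.

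Genes with the most similar profiles were sought for each called member among 21649 genes, by the root mean square difference of the 8 dye-adjusted log2 ratios. For Ckb the nearest were 2 probes without a gene symbol, A_55_P2112302 (0.126, chr17:54080173-54080232 of mm9, minus strand) and A_55_P2107192 (0.214, chr4:121757398-121757457, plus strand). These probes shared 44 of 47 overlapping bases with each other, and between 34.5% and 42% with the Ckb probes. Alas1, the first enzyme of heme synthesis, came next at 0.349, with -0.87 at 6 weeks and 0.58 at 11 months. For Ckmt1 the nearest was Vdac2, the outer-membrane pore (0.067), followed by the mitochondrial topoisomerase Top1mt (0.098). Gamt had Dennd2d (0.116), C9orf72 (0.18) and Cks1b (0.204) as its nearest, and Gatm had Pold3, Mthfd1l and Lmnb1 (0.057 to 0.061). Near Alpl lay AI852064 (0.302) and Kcng4 (0.34). These distances are descriptions and carry no test.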

How the data were processed

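The deposited scanner tables give, per the file headers, each spot's mean intensity and the median intensity of its local background in both channels, read by Agilent Feature Extraction 10.5.1.1 (6 weeks) and 10.10.1.1 (11 months) on a design with mm9 positions. That software's own log10 ratio (Cy5 to Cy3, background-subtracted and dye-normalized, per the file headers) is deposited too. The value table deposited by the authors holds log2 ratios that follow knockout over wild type (r = 0.885 to 0.979 with the values used here); the submitters' processing notes name limma, with settings not given in the sources used here. The log2 and log10 ratios served as alternatives.

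Intensities were corrected with normexp (offset 50) and loess-normalized within arrays, with control and excluded spots (131 to 247 per array) at weight 0, using limma 3.58.1 under R 4.3.3. The labels' dyes set the direction of each ratio, and spots of a probe were averaged. Probes well above background in 4 or more of 16 channel measurements, with values on 3 or more arrays of each age, were kept. The model had a coefficient per age and a shared dye coefficient (5 residual degrees of freedom); p-values were adjusted by Benjamini-Hochberg over all 26853 probes. Channel levels followed Aquantile scaling. In gene lists the brightest probe stood for a gene, and 14810 of 21742 genes were named through their accession in RefSeq (GRCm38.p6). The members, the muscle genes, the lists, the alternatives and the 3 arrays left out together were chosen with earlier results of these data known. Genes named are all members, Ckm, Myh4, Prdm16, Ucp1, Slc6a8, Atp2a1 and Ryr1, up to 4 called genes per list and comparison with the largest change (or the 2 largest where fewer than 2 were called), and the 3 nearest neighbours of each called member; not all are printed, and some are not reported here. Sln was added after its value was seen. The fit was tested on simulated data. Alternatives were other background corrections and normalizations, filters, dye terms, probe choice, a muscle covariate, a replicate block and left-out arrays.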

Additional observations from a re-analysis of the deposited data

Results flagged for a closer look

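Of the 11 member probes 6 had knockout ratios that differed between the ages by test. The differences, 11 months minus 6 weeks, were 1.81 ± 0.32 and 1.58 ± 0.30 for the Ckb probes A_55_P1976224 and A_52_P385606 (adjusted p = 0.0101 and 0.0129). They were 1.47 ± 0.23 and 1.51 ± 0.18 for the Gamt probes A_55_P1973259 and A_55_P1991505 (adjusted p = 0.0065 and 0.00293). Ckmt1 gave -0.675 ± 0.106 (adjusted p = 0.0065) and Alpl -1.98 ± 0.29 (adjusted p = 0.00531). Age, slide and batch cannot be told apart in these differences.

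Single arrays stood apart from the other 3 of their age in 4 of 36 groups checked, where chance flags about 1 in 20. On 11-month replicate 4 Gamt probe A_55_P1973259 read 1.31, below 2.11 to 2.15 on the others, and Atp2a2 probe A_52_P168097 read 0.245, above -0.426 to -0.325 on the others. Ryr2 read -0.432 on 6-week replicate 4 (others -0.295 to -0.291), at signals that were not well above background in that array's knockout channel. Ucp1 read -6.21 on 11-month replicate 3 (others -3.46 to -3.07).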

How the results depend on the processing

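At 6 weeks 3 of 11 member probes were called, beside 16.6% of all probes. The count was 5 with a dye coefficient per age (23.3% of all probes) and 6 with each age modelled alone (19.6%). It was 3 to 5 when 1 array was left out (5.52% to 20.1%). Without 6-week replicates 2 and 4 and 11-month replicate 4 together it was 0 (3.58%), with 2 arrays left at 6 weeks. For the difference between ages the count was 6, and 6 under every single left-out array. There 1027 to 1843 of the 26853 probes were called higher and 1417 to 2166 lower. Without those 3 arrays it was 2, beside 274 higher and 482 lower. The 11-month count (5) ranged from 5 to 6 over left-out arrays, beside 3006 to 4715 of all probes called higher and 2918 to 4499 lower. With the replicate block the difference count was 6, beside 19.1% of all probes; same-numbered arrays of the ages had deviations from their group means correlating at -0.188 to -0.06, and 0 of 8 arrays correlated best with their own number, so the numbers were not taken as pairs. Median centring moved the share of higher calls from 57.6% to 70.5% at 6 weeks, from 51.4% to 70.6% at 11 months and from 44.8% to 59% for the difference; its counts over all probes fell to 4.63%, 22.1% and 2.24%. Direction changed only for values not called. With median centring these were Atp2a2 A_51_P451075 at 6 weeks (0.016), Ckmt2 (0.22) and Ckm (0.10) at 11 months and the Atp2a2 A_52_P168097 difference (0.0700); with the muscle covariate, Ckmt2 at 11 months (0.11). Without the 3 arrays, Ckmt2, Ckm and Myh4 read 0.99, 1.24 and 2.44 at 6 weeks, and their differences -1.99, -2.15 and -3.29; the Ryr2 and Slc6a8 differences read 0.0504 and -0.22. Over left-out arrays Myh4 ranged from -2.50 to 0.88 at 6 weeks; Ckmt2 from -0.93 to 0.38, Ckm from -0.85 to 0.22 and Myh4 from -0.73 to 0.27 at 11 months. The differences ranged from -0.76 to 0.18 (Atp2a2 A_51_P451075), -0.11 to 0.12 (A_52_P168097), -0.16 to 0.11 (Ryr2), -0.10 to 2.23 (Ckm), -1.04 to 2.34 (Myh4) and -0.21 to 0.28 (Slc6a8). The left-out arrays leave fewer samples. Both ages share 1 spread estimate, so leaving out an array of 1 age also changes the errors at the other. Otherwise the cause was not tested. Signal over background limits Ryr2.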
